A study of Mus musculus and Rattus norvegicus with 32 samples.

Results

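The integrated stress response and serine synthesis genes described here are 10 genes named by symbol, Atf4, Ddit3, Trib3, Asns, Chac1, Gdf15, Fgf21, Psat1, Phgdh and Mthfd2. The genes were chosen with earlier results of these data known, and their rows were then taken by symbol alone from 4 deposited count tables. All 10 symbols were present among the 55487 genes of each mouse table, where Ddit3 has 2 rows, and among the 32883 genes of the rat table. METTL5 is the methyltransferase that adds N6-methyladenosine to 18S ribosomal RNA, and the study asked how its loss or gain acts on the heart under growth stress. Bulk RNA sequencing of 4 libraries per group covered 3 pairs of mouse heart groups and 1 pair of cultured rat cardiomyocyte groups. The mice were C57BL/6. Hearts of METTL5-KO mice at 1 month of age were compared with those of control littermates. METTL5-cKO mice, compared with controls at 3 months of age, carry a METTL5 allele with floxed exons 2 to 4 and a Cre transgene driven by the αMHC promoter, which is active in cardiomyocytes, so that other cells of the heart keep the gene. Whether the controls carried the floxed allele or Cre is not given in the sources used here. The genotype field of these samples reads Mettl5-KO while their titles read cKO. A further pair of METTL5-cKO and control groups was taken 4 weeks after transverse aortic constriction (TAC), a surgery that narrows the aorta and overloads the left ventricle. The age given for this pair is also 3 months, and whether that is at surgery or at harvest was not resolved here. Sham-operated hearts were not analysed here. Neonatal rat ventricular myocytes (NRVMs) were isolated from Sprague Dawley rats at postnatal day 2, pre-plated to remove fibroblasts, infected with adenovirus for the human METTL5 coding sequence (AdMETTL5) or for GFP (AdGFP), and treated in both groups with 20 μM phenylephrine (PE), an α1-adrenergic agonist that makes these cells grow, for 24 h.

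The integrated stress response is a program in which kinases that sense endoplasmic reticulum stress, amino acid shortage, double-stranded RNA, heme shortage or mitochondrial stress phosphorylate the initiation factor eIF2, which lowers general translation while the transcription factor ATF4 is translated more. ATF4 then switches on genes of amino acid uptake and synthesis, of transfer RNA charging, and of the mitochondrial folate pathway. In the heart this program is best known from mitochondrial cardiomyopathies, where Gdf15, Fgf21 and the serine and one-carbon enzymes are often raised together. Since ATF4 itself is controlled mainly at translation and protein stability, its messenger RNA level is not a measure of its activity.

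The roles of the 10 genes fall into 4 groups. Atf4 encodes the transcription factor at the centre of the response, and Ddit3 encodes CHOP, a transcription factor downstream of it. Trib3 encodes a pseudokinase that binds ATF4 and CHOP and dampens them, Asns encodes asparagine synthetase, and Chac1 encodes an enzyme that degrades glutathione. Gdf15 and Fgf21 encode secreted hormones. Phgdh and Psat1 encode enzymes of serine synthesis from a glycolytic intermediate, and Mthfd2 encodes the mitochondrial folate enzyme that is usually low in adult tissues.

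ATF4 binds DNA as a partner of C/EBP proteins at composite elements, and a search for the letters TGATGNAA on both strands was made in the promoter sequences of RefSeq (GRCm38.p6), which run from 250 bases before to 50 bases after each gene start. All 10 genes matched, with 12 promoters. The element was found in 4 of the 10 genes, against 3.9694% of the 32851 mouse promoters of that length. Those sequences are shown because they mark which members have such a match close to the start, with the match in capitals and each sequence read 5′ to 3′ on the strand of its gene. The stretch of Chac1 is chr2:119351024-119351081 on the plus strand. Those of the other three lie on the minus strand, Trib3 at chr2:152344036-152344071, Asns at chr6:7693200-7693257 and Fgf21 at chr7:45615597-45615654. Counted from the gene start, the match begins at -193 in Chac1, -139 in Fgf21, -23 in Asns and 15 in Trib3. The start used for Asns, at 7693209, and its match lie inside the annotated gene, which reaches 7693254. For Trib3 the start used, at 152344060, and the match lie before the annotated gene, which begins at 152344032 on its strand.
Chac1: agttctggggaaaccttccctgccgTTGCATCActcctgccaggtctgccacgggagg
Trib3: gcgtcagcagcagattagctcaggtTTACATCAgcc
Asns: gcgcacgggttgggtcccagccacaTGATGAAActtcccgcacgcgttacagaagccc
Fgf21: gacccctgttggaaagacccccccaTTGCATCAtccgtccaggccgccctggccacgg

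The ER stress element, which is present in 0.1187% of all promoters, and the cyclic AMP response element TGACGTCA, present in 1.7899%, were each found in 0 of the 10 genes. Gdf15 and Mthfd2, the genes with the largest differences after TAC, had none of these letters in the 300 bases searched, which says nothing about sites outside them. The 120 bases before their starts, for Gdf15 the more upstream of 2 listed starts, are shown for comparison, with no capitals because there was no match. They are chr8:70632457-70632576 for Gdf15, with 55.8% G or C, and chr6:83317605-83317724 for Mthfd2, with 62.5%, both on the minus strand. The start used for Mthfd2, at 83317604, lies inside its annotated gene, which reaches 83325908. The bases before that farther end were not searched.
Gdf15: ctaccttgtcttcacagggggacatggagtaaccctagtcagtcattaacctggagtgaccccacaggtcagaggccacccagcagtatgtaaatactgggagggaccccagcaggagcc
Mthfd2: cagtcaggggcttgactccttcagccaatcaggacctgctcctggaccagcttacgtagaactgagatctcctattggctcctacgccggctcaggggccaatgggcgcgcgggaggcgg

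Total counts had medians between 20821231 and 21664672 over the 6 heart groups, and lay between 17344430 and 18085339 in AdGFP and between 14324700 and 14642431 in AdMETTL5. All levels are CPM, counts scaled to a common library size, with library sizes adjusted by the trimmed mean of M values (TMM). Mettl5 itself, the targeted gene, was at 4.51, 5.94, 5.37 and 4.66 CPM in control libraries 1 to 4 at 1 month and at 5.26, 5.27, 6.62 and 6.71 CPM in the libraries labelled METTL5-KO. In the hearts labelled METTL5-cKO the mean was 6.51 ± 0.731 CPM against 7.36 ± 0.554 at 3 months and 6.59 ± 0.764 against 6.75 ± 0.752 after TAC (SD, n = 4). The groups overlapped in all 3 comparisons, so the counts of this gene do not separate the labelled genotypes. Its exons share 169 bases with Ssb on the other strand and 50 with Gm13625 on the same strand, and reads from these cannot be told apart here. The deposited counts are per gene and do not show which exons the reads came from. The paper, from its own view of the reads by exon, reports the floxed exons as nearly absent in METTL5-cKO hearts. In NRVMs the rat gene was at 21.2 ± 1.76 CPM with AdMETTL5 and 17.0 ± 0.774 with AdGFP, with no overlap, and how reads of the human sequence were counted was not tested. The 12 cardiomyocyte markers summed to 32235 to 56264 CPM over all hearts, and none was at 0. Libraries are numbered within a group by their column names. Whether the libraries of a group come from separate animals or cultures is stated only by the replicate labels, so p-values measure the spread between these libraries.

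Per kilobase of exon, Atf4 was the highest of the 10 genes in all 6 heart groups, with means between 23.0 and 33.1 CPM per kb. The length is that of all annotated exons of a gene merged. It can exceed the transcript in use, so the order of genes with close values is approximate. Ddit3 was second in 5 of the 6 groups, with means between 6.94 and 9.08 CPM per kb. In METTL5-cKO hearts after TAC the second place was held by Gdf15 at 11.1 ± 7.15 CPM per kb, ahead of Ddit3 at 7.85 ± 1.25 (SD, n = 4), a difference smaller than the SD of Gdf15. In control hearts at 3 months Chac1 (1.46 ± 0.18), Trib3 (1.21 ± 0.109) and Asns (0.750 ± 0.0933) came next. Mthfd2 (0.464 ± 0.156), Gdf15 (0.415 ± 0.137) and Psat1 (0.373 ± 0.107 CPM per kb, SD, n = 4) followed in the same group and differed by less than their SDs. Phgdh was ninth in every heart group, at 0.238 to 0.349 CPM per kb, which rests on 6 to 27 counts per library. Fgf21 had a count of 0 in 24 of 24 hearts, and a count of 0 allows up to 3 counts, or 0.118 to 0.181 CPM, per library (counting error only). Fgf21 was therefore not detectable at this depth in any heart group, and with 9 members left the filter on low counts kept each of them in each comparison.

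**Figure D1:**
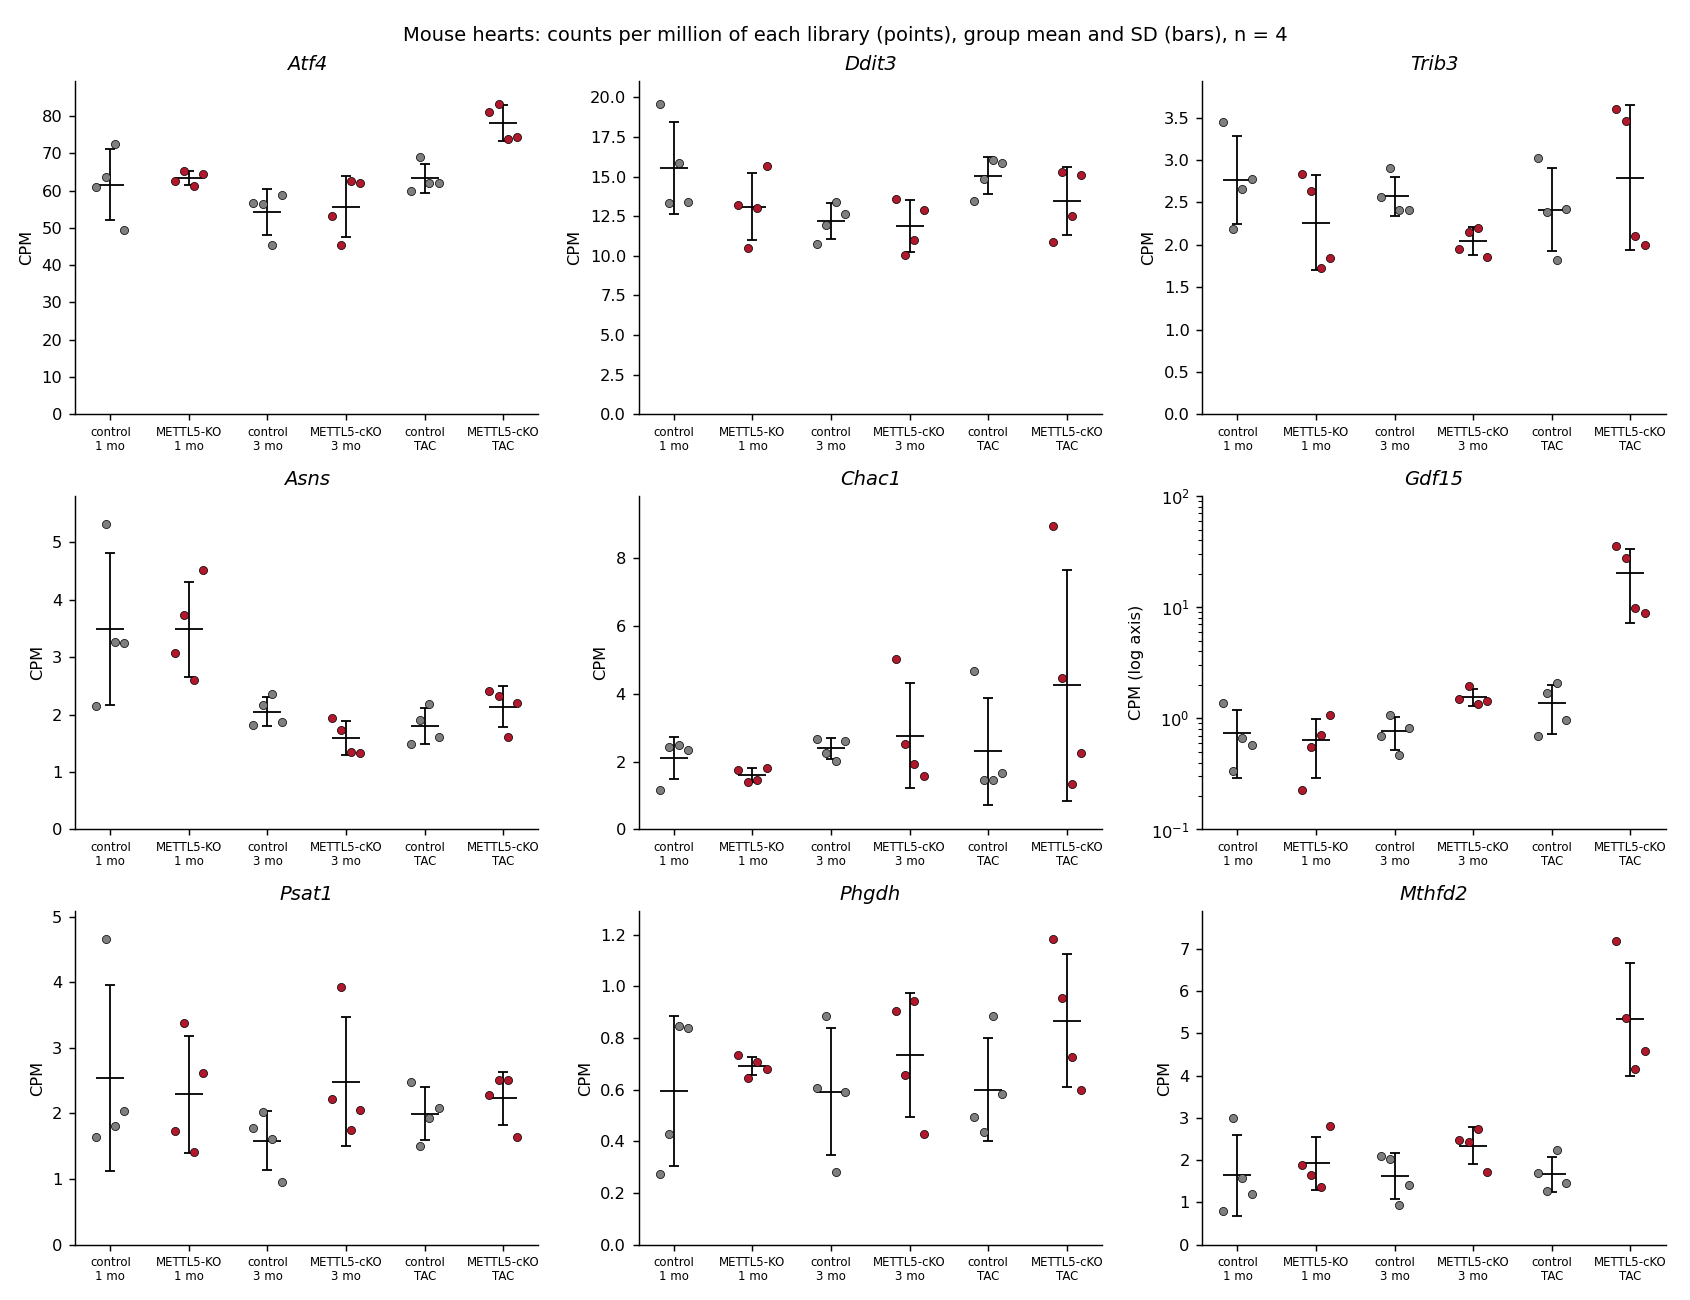
Levels of 9 genes in mouse hearts, in CPM on the vertical axis (a log axis for Gdf15, linear from 0 for the others), for control (grey) and METTL5-KO or METTL5-cKO (red) at 1 month, 3 months and 4 weeks after TAC. Points are libraries, the bars are the mean and SD of 4 libraries, and the METTL5-cKO hearts after TAC stand above all their controls for Gdf15, Mthfd2 and Atf4.

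At 1 month, none of the 9 genes tested passed the test between hearts labelled METTL5-KO and control, and the groups overlapped for each of them. Atf4 was at 60.9, 63.6, 72.4 and 49.4 CPM in controls and at 62.5, 65.3, 61.1 and 64.4 CPM in METTL5-KO hearts. Ddit3 was at 19.6, 13.4, 15.9 and 13.4 CPM in controls against 13.2, 10.5, 13 and 15.7 in METTL5-KO hearts, with control library 1 the highest of the 8. Among the amino acid genes, Asns ranged from 2.16 to 5.32 CPM in controls and from 2.60 to 4.52 in METTL5-KO hearts. Control library 2 held the highest value of the 8 for Asns, Psat1 and Mthfd2, and control library 1 the lowest value of the controls for these 3 genes, so that the spread within the control group was wider than the difference between groups. Log2 fold changes of the 9 genes lay between -0.39 (Chac1) and 0.25 (Phgdh), with a median of -0.16 against -0.01 over all genes. None was called at an adjusted p under 0.05 by the quasi-likelihood test of edgeR (Benjamini-Hochberg adjusted over all genes), none at an unadjusted p under 0.05 and none by DESeq2. Of all 16329 genes, 0.00612% were called, 4.57% had an unadjusted p under 0.05 and 3.01% had groups that did not overlap.

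At 3 months, none of the 9 genes was called in METTL5-cKO hearts by edgeR or by DESeq2 after adjustment, where 0.0732% of 16391 genes were called by edgeR. At an unadjusted p under 0.05 there was 1 higher gene, Gdf15, and 1 lower gene, Trib3, where 7.05% of all genes passed. These were also the 2 members whose groups did not overlap, which held for 4.23% of all genes. Gdf15 (ENSMUSG00000038508, GRCm38 chr8:70629393-70632456, minus strand) was at 0.70, 1.08, 0.472 and 0.819 CPM in controls and at 1.49, 1.97, 1.35 and 1.43 CPM in METTL5-cKO hearts, which rests on 10 to 22 counts against 30 to 42. No METTL5-cKO library fell within the control range. The log2 fold change was 1.02 (SE 0.255), with an adjusted p of 0.316 in edgeR's quasi-likelihood test and p = 0.0286 in the exact two-sided permutation test, the smallest value that 70 labellings can give. Trib3 was at 2.57, 2.90, 2.41 and 2.41 CPM in controls and at 1.94, 2.16, 2.20 and 1.86 in METTL5-cKO hearts. Its log2 fold change was -0.33 (SE 0.138), with an adjusted p of 0.669 in the same edgeR test.

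The serine and one-carbon genes overlapped between groups at 3 months. Psat1 was at 1.77, 2.02, 1.6 and 0.956 CPM in controls and 2.22, 3.94, 1.75 and 2.05 in METTL5-cKO hearts, with library 2 of the latter well above the rest. Mthfd2 was at 2.1, 2.02, 0.943 and 1.41 CPM in controls and 2.49, 2.44, 2.74 and 1.71 in METTL5-cKO hearts. Their log2 fold changes were 0.65 for Psat1 and 0.54 for Mthfd2, with adjusted p of 0.725 and 0.739 by edgeR, and Asns was at -0.37 with 0.754. Atf4 and Ddit3 were at log2 fold changes of 0.04 and -0.04, with SEs of 0.126 and 0.122 on the log2 scale. Chac1 was at 5.02 CPM in METTL5-cKO library 1, against 1.57 to 2.53 in the other 3 and 2.03 to 2.66 in controls. Summed fibroblast markers, a list of 12 genes, ranged from 526 to 676 CPM in controls and from 624 to 896 in METTL5-cKO hearts at this age. Endothelial markers (10 genes) ranged from 630 to 964 CPM in controls and from 509 to 786 in METTL5-cKO hearts, with all 10 log2 fold changes below 0. Macrophage markers (11 genes) ranged from 182 to 240 against 225 to 321 CPM, with all 11 above 0. Cardiomyocyte markers (12 genes) ranged from 52479 to 56264 against 47097 to 52673 CPM, with 11 log2 fold changes below 0 and 1 above. Smooth muscle and pericyte markers (9 genes) ranged from 629 to 825 against 696 to 807 CPM, with 4 below 0 and 5 above. No marker of these lists was called by edgeR. At an unadjusted p under 0.05, which 7.05% of all genes passed, there were 7 higher and 1 lower fibroblast, 3 lower endothelial and 6 higher macrophage markers. There were also 3 lower smooth muscle and pericyte markers and 0 cardiomyocyte markers. By DESeq2 there were 2 higher fibroblast and 1 lower endothelial marker. The part of cell makeup in the Gdf15 value was not tested.

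After TAC, 3 of the 9 genes rose in METTL5-cKO hearts against controls after the same surgery, and none fell. They were Gdf15, Mthfd2 and Atf4, where 6.57% of 16340 genes were called higher and 6.1% lower. Since the members were chosen with earlier results of these data known, these shares are a description and not a test of the set. The same 3 were the members with groups that did not overlap, with METTL5-cKO above control, which held for 9.41% of all genes. Gdf15 was at 0.694, 1.70, 2.08 and 0.970 CPM in controls and at 35.5, 27.7, 9.78 and 8.89 CPM in METTL5-cKO hearts. The 4 METTL5-cKO libraries fell into a higher and a lower pair, both above each control. The mean was 1.36 ± 0.641 CPM in controls and 20.5 ± 13.2 in METTL5-cKO hearts (SD, n = 4). This gave a log2 fold change of 3.91 (SE 0.552), with an adjusted p of 0.00716 by edgeR's quasi-likelihood test. In counts, controls held 14 to 40 and METTL5-cKO hearts 178 to 809.

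Mthfd2 (ENSMUSG00000005667, GRCm38 chr6:83305691-83325908, minus strand) was at 1.69, 1.26, 2.24 and 1.46 CPM in controls and 7.19, 5.38, 4.16 and 4.59 CPM in METTL5-cKO hearts after TAC. All 4 METTL5-cKO libraries were above every control. The log2 fold change was 1.68 (SE 0.225), a 3.21-fold rise with an adjusted p of 0.00621 by edgeR. Atf4 (ENSMUSG00000042406, GRCm38 chr15:80255184-80257541, plus strand) was at 59.9, 69.0, 62.1 and 62.1 CPM in controls and 81.2, 83.2, 73.8 and 74.3 in METTL5-cKO hearts. Its rise was small, with a log2 fold change of 0.30 (SE 0.0749), or 1.23-fold, and an adjusted p of 0.0318 by edgeR. The calls of Gdf15 and Mthfd2 held without any 1 of the 8 libraries, with log2 fold changes between 3.51 and 4.19 and between 1.5 and 1.87. The call of Atf4 was lost in 5 of these 8 fits, without control library 1 (adjusted p = 0.0604 by edgeR), 3 (0.0613) or 4 (0.0923) and without METTL5-cKO library 1 (0.0799) or 2 (0.0990).

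The other members did not pass the test after TAC. Ddit3, which encodes CHOP, was at 13.5, 14.8, 16.1 and 15.9 CPM in controls and at 10.9, 15.3, 12.5 and 15.1 in METTL5-cKO hearts. Its log2 fold change of -0.16 (adjusted p = 0.389, edgeR) made it the only one of the 9 below 0. Chac1 was at 4.66, 1.46, 1.46 and 1.65 CPM in controls and at 8.94, 4.47, 1.33 and 2.25 in METTL5-cKO hearts, so that control library 1 and METTL5-cKO libraries 1 and 2 stood high and the groups overlapped. Its log2 fold change of 0.88 (SE 0.594) had an adjusted p of 0.349 by edgeR. Trib3 showed the same pair of high METTL5-cKO libraries, at 3.60, 3.46, 2.1 and 2.0 CPM against 3.02, 2.38, 1.82 and 2.43 in controls. Asns was at a log2 fold change of 0.25 (adjusted p = 0.379, edgeR) and lay between 1.49 and 2.19 CPM in controls and between 1.62 and 2.41 in METTL5-cKO hearts. The 2 enzymes of serine synthesis were at 0.54 for Phgdh (adjusted p = 0.245) and 0.16 for Psat1 (adjusted p = 0.605, edgeR), where Phgdh rests on 9 to 27 counts per library. METTL5-cKO library 1 was the highest of its group for 6 of the 9 members, Trib3, Asns, Chac1, Gdf15, Phgdh and Mthfd2. The median log2 fold change of the 9 genes was 0.30, against -0.00 over all genes tested.

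**Figure D2:**
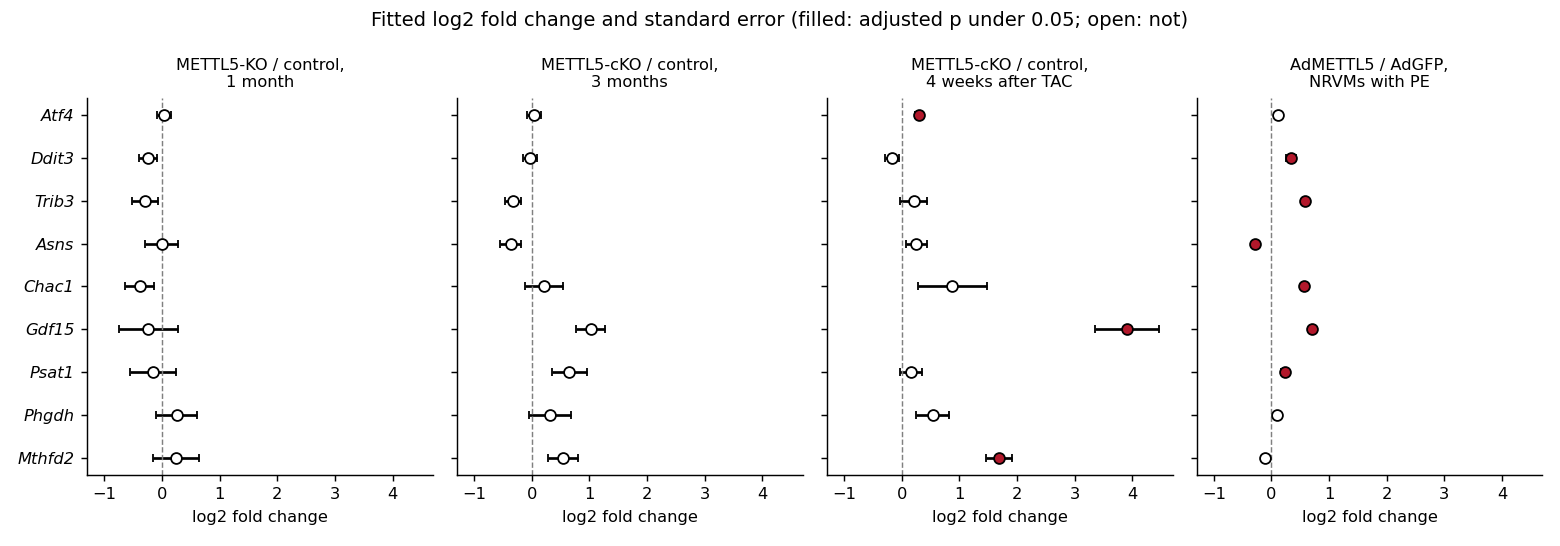
Log2 fold change of each of 9 genes (horizontal axis, with bars of 1 SE, hidden by the point where shorter than it) in the 4 comparisons, METTL5-KO or METTL5-cKO against control and AdMETTL5 against AdGFP, 4 libraries a group. Filled points have an adjusted p under 0.05 by edgeR's quasi-likelihood test, which is 0 genes at 1 and 3 months, 3 after TAC and 6 in NRVMs.

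Markers of cell types moved with the genotype after TAC, where 6.57% of all genes were called higher and 6.1% lower. Of 12 fibroblast markers, 8 rose and 0 fell, with Postn, a matrix protein of activated fibroblasts, at a log2 fold change of 3.64 (adjusted p = 0.00948, edgeR). Their summed level was 892, 720, 871 and 700 CPM in control libraries 1 to 4 and 3287, 2306, 2219 and 1078 CPM in METTL5-cKO libraries 1 to 4. Of 12 cardiomyocyte markers 3 fell, with sums of 51126 to 56098 CPM in controls and 40707 to 49751 in METTL5-cKO hearts. Of 11 macrophage markers 3 rose (271 to 356 against 366 to 472 CPM), of 10 endothelial markers 5 fell (775 to 924 against 550 to 711 CPM), and of 9 smooth muscle and pericyte markers 1 rose and 1 fell. None of these markers was at 0 in either group. The counts of called markers moved when 1 library was left out. The higher fibroblast markers numbered 2 without control library 4 and 10 without METTL5-cKO library 4. The lower cardiomyocyte markers numbered 0 without control library 4 or METTL5-cKO library 2 and 6 without METTL5-cKO library 4. The lower endothelial markers numbered 2 in 6 of the 8 fits and 7 without METTL5-cKO library 4, and the higher macrophage markers numbered 1 without control library 2, control library 4 or METTL5-cKO library 2 and 4 without METTL5-cKO library 4. The higher smooth muscle and pericyte marker was lost in 6 of the 8 fits, and 3 were lower without METTL5-cKO library 4. In bulk tissue fewer cells of a type and less RNA per cell cannot be told apart, and the part of cell makeup in the rise of Gdf15, Mthfd2 and Atf4 was not tested.

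An interaction term over the 16 libraries asked whether the genotype effect was the same with TAC and at 3 months without it. None of the 9 members passed after adjustment by edgeR, where 0.00586% of 17070 genes did, and 3 passed at an unadjusted p under 0.05, where 11.8% did. Gdf15 had the largest difference, with an effect 2.91 (SE 0.712) higher on the log2 scale after TAC and an adjusted p of 0.143. This call depended on the tool and on 1 library, since DESeq2 gave an adjusted p of 0.00317 and the edgeR fit without METTL5-cKO TAC library 4 gave 0.0110. Mthfd2 had a difference of 1.16 (SE 0.361, adjusted p = 0.212, edgeR) and Asns one of 0.63 (SE 0.250, adjusted p = 0.334). Asns was the only one of these 3 whose fold change turned from negative at 3 months to positive after TAC. The age given is 3 months in both pairs. The 2 tables come from hearts with and without surgery, which cannot be told apart from any other difference between them.

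Other genes of the response were read from lists that were chosen with earlier results of these data known. Their counts are set against the 6.57% of all genes called higher and 6.1% called lower after TAC. Of 14 genes of the eIF2 kinases and their machinery, 1 rose and 1 fell. Ppp1r15a, which encodes the stress-induced phosphatase subunit GADD34 that reverses eIF2 phosphorylation, went from 18.4 ± 2.15 to 32.5 ± 7.93 CPM (SD, n = 4, log2 fold change 0.82, adjusted p = 0.0184, edgeR). Dele1, the mitochondrial protein that relays mitochondrial stress to the kinase HRI, went from 88.6 ± 7.84 to 62.1 ± 8.57 CPM (log2 fold change -0.51, adjusted p = 0.0203). Both calls were lost without control library 2, control library 4 or METTL5-cKO library 2, and the lower count became 2 without control library 3. Of 22 other targets and partners of ATF4 and CHOP, 6 rose and 0 fell, with a median log2 fold change of 0.21. Nupr1, a small stress-induced chromatin protein, went from 5.17 ± 1.37 to 19.1 ± 9.14 CPM (log2 fold change 1.89, adjusted p = 0.0174, edgeR). Slc1a4, a carrier of neutral amino acids, went from 1.78 ± 0.159 to 3.58 ± 1.09 CPM (log2 fold change 1.01, adjusted p = 0.0215), and Eif4ebp1, which encodes the translation repressor 4E-BP1, was at 0.54 (adjusted p = 0.0127). The other 3 were Stc2, which encodes a secreted glycoprotein, and Slc3a2 and Slc7a5, which encode the paired chains of an amino acid exchanger.

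Of 20 cytosolic aminoacyl-tRNA synthetases, which charge transfer RNAs, 4 rose after TAC and 0 fell, with a median of 0.20. Aars, the alanyl enzyme, was at a log2 fold change of 0.43 (adjusted p = 0.0284, edgeR) and Nars, the asparaginyl enzyme, at 0.39 (adjusted p = 0.0386). Of 24 further enzymes of serine, glycine, proline and one-carbon metabolism 1 rose and 2 fell, with a median of -0.07, shares near those of all genes. Aldh18a1, the first step of proline synthesis, was at 0.73 (adjusted p = 0.0194), while Aldh1l1, a cytosolic folate enzyme, was at -0.84 (adjusted p = 0.0314) and Gpt2, the mitochondrial alanine transaminase, at -0.55 (adjusted p = 0.0426, edgeR). Of 21 endoplasmic reticulum chaperones and genes of the ATF6 and XBP1 arm none was called, with 1 lower at an unadjusted p under 0.05 and 0 by DESeq2, and of 11 mitochondrial chaperones and proteases none was called, with 3 lower at an unadjusted p and 2 lower by DESeq2. Fgfr1, a receptor that FGF21 uses, was at 0.65 (adjusted p = 0.0156, edgeR) and was the only one called of the 2 receptor genes tested. These counts moved with single libraries. The 6 higher targets became 1 without control library 2, control library 4 or METTL5-cKO library 2, and 2 without control library 3. The 4 higher synthetases became 0 in 5 of the 8 fits that leave out a library and 10 without METTL5-cKO library 4, and were 9 by DESeq2, 11 on library size alone and 1 with no filter on low counts. Among the serine, glycine, proline and one-carbon enzymes the higher count ran from 0 to 2 and the lower from 0 to 4, both highest without METTL5-cKO library 4. The calls of Aldh1l1 and Gpt2 were each lost in 6 of the 8 fits and that of Aldh18a1 in 4. The call of Fgfr1 was lost in 3, and the mitochondrial list had 3 lower genes without METTL5-cKO library 4 and 2 without control library 3.

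At 1 and 3 months no gene of any of these lists was called by edgeR. By DESeq2 there was 1 higher gene at 3 months among the targets of ATF4 and CHOP and 1 among the serine, glycine, proline and one-carbon enzymes. At an unadjusted p under 0.05 the largest number was at 3 months among the endoplasmic reticulum chaperones, 9 lower of 21. Of all genes at that age, 7.05% passed this threshold in either direction. The median log2 fold change of the list was -0.29, with a range from -0.81 to 0.24, against 0.00 over all genes.

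In NRVMs 9 of the 10 members were detected in every library. Gdf15 was at 76.0 ± 3.49 CPM in AdGFP cells, and Phgdh, the lowest detected member in hearts, was at 105.7 ± 0.562 CPM (SD, n = 4). With AdMETTL5, 5 of the 9 genes rose and 1 fell, but this has to be read against 27.1% of 15041 genes called higher and 25.7% lower, or 52.8% in all. No member passed an absolute log2 fold change of 1, which 4.05% of all genes did upward and 1.8% downward. The groups did not overlap for Trib3, Chac1, Gdf15, Psat1 and Phgdh, which were higher with AdMETTL5, and for Asns, which was lower, where 25.2% and 23.1% of all genes showed this.

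Gdf15 (ENSRNOG00000019661) was at 79.1, 76.2, 71.1 and 77.7 CPM in AdGFP libraries and 138, 129, 118 and 113 CPM in AdMETTL5 libraries. The groups were well separated, with a log2 fold change of 0.71 (SE 0.0638, adjusted p = 2.57e-06, edgeR). Trib3 was at 36.5, 33.7, 31.3 and 31.9 CPM with AdGFP and at 51.4, 50.5, 53.4 and 45.5 with AdMETTL5. Its log2 fold change was 0.59 (SE 0.0657, adjusted p = 1.44e-05, edgeR). Chac1 was at 19.1, 19.9, 19.3 and 21.6 CPM with AdGFP and at 30.6, 30.2, 30.5 and 27.4 with AdMETTL5. Here too every AdMETTL5 library was above every AdGFP library, with a log2 fold change of 0.57 (SE 0.0628, adjusted p = 1.33e-05, edgeR). Ddit3 was at 27.5, 26.8, 23.8 and 25.5 CPM with AdGFP and at 35.2, 33.2, 35.4 and 26.8 with AdMETTL5. AdMETTL5 library 4 lay within the AdGFP range, and the log2 fold change was 0.33 (SE 0.0872, adjusted p = 0.00666, edgeR).

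Asns moved the other way from the rest of the called members. It was at 150, 143, 150 and 145 CPM with AdGFP and 116, 112, 123 and 131 with AdMETTL5, a log2 fold change of -0.29 (SE 0.0520, adjusted p = 0.000614, edgeR). Psat1, of serine synthesis, was at 39.1, 36.5, 42.8 and 42.0 CPM against 44.6, 43.2, 49.0 and 51.3, a log2 fold change of 0.23 (SE 0.0697, adjusted p = 0.0150, edgeR). Phgdh lay between 105 and 106 CPM with AdGFP and between 108 and 119 with AdMETTL5, but did not pass (log2 fold change 0.09, adjusted p = 0.102). Mthfd2 was at 110, 102, 93.8 and 98.3 CPM against 92.8, 93.0, 88.9 and 99.9, which overlap (log2 fold change -0.11, adjusted p = 0.124). Atf4 was at 479, 471, 447 and 431 CPM with AdGFP and at 513, 507, 504 and 459 with AdMETTL5, where library 4 again fell among the AdGFP values (log2 fold change 0.12, adjusted p = 0.0786, edgeR). Without that library Atf4 was called, with an adjusted p of 0.0241. AdMETTL5 library 4 was the lowest of its group for Atf4, Ddit3, Trib3, Chac1 and Gdf15 and the highest for Asns, Psat1, Phgdh and Mthfd2. Fgf21 had 9, 4, 0 and 0 counts with AdGFP and 0, 4, 0 and 5 with AdMETTL5, too few for the test, and a count of 0 allows 0.174 to 0.202 CPM.

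**Figure D3:**
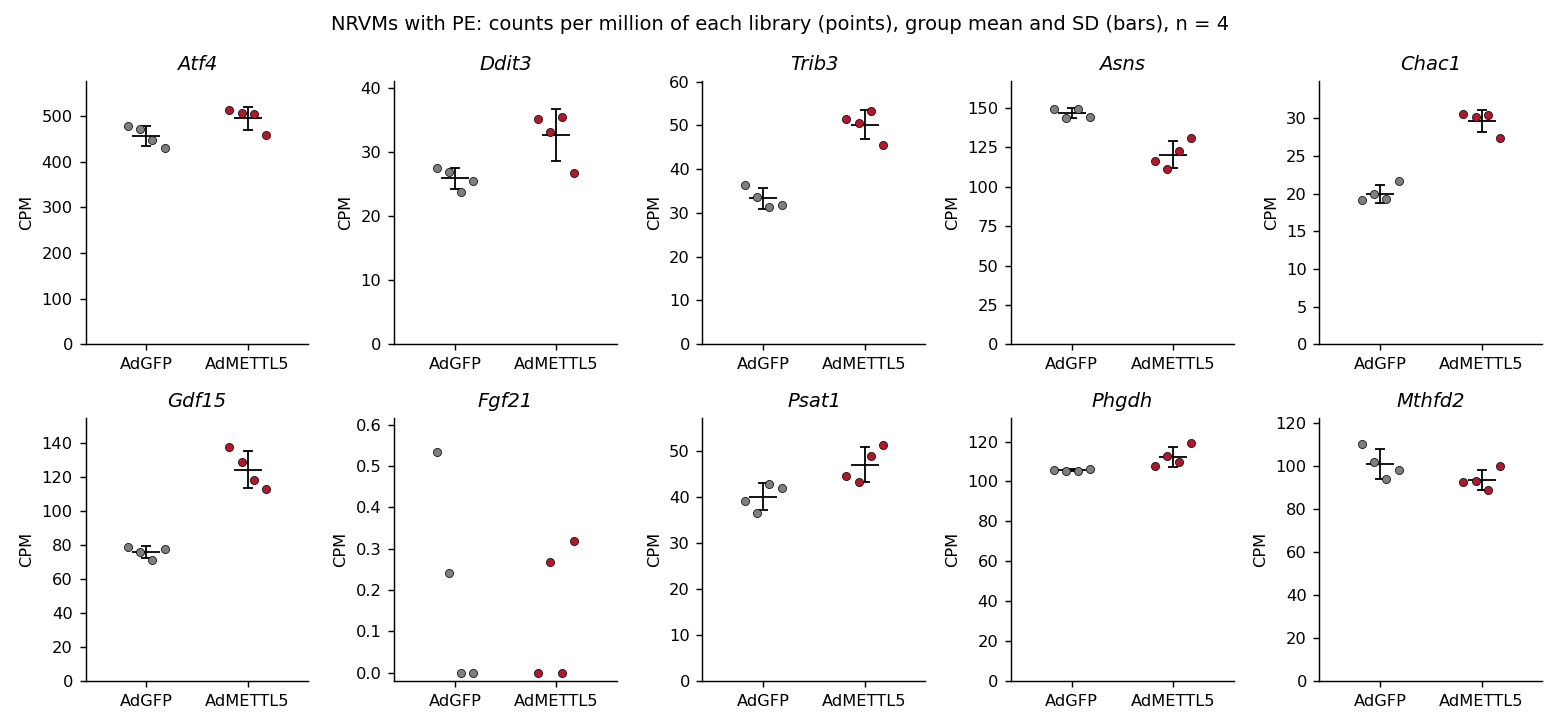
Levels of the 10 genes in NRVMs with PE, in CPM on linear axes, for AdGFP (grey) and AdMETTL5 (red). Points are libraries and bars the mean and SD of 4 libraries (none for Fgf21, with 0 to 9 counts), and the groups stand apart for Trib3, Chac1, Gdf15, Psat1 and Phgdh, which were higher with AdMETTL5, and for Asns, which was lower.

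Which of these small changes were called depended on the scaling, and the sign of 1 member did. On library size alone the median log2 fold change of all genes in NRVMs moved from -0.00 to 0.13, and the share of calls that were higher went from 51.4% to 71.5%. Asns was then at -0.15 and not called (adjusted p = 0.0628), Mthfd2, not called under either scaling, turned to 0.03, and Atf4 (0.25) and Phgdh (0.23) were called higher, so that 7 members were higher and 0 lower. Gdf15, Trib3 and Chac1 were called higher under both scalings. After TAC the same change of scaling moved the median of all genes to 0.14 and the share of higher calls from 51.9% to 79.7%. The AdMETTL5 libraries also held fewer counts. Their marker calls have to be read against 27.1% of all genes called higher and 25.7% lower. Cardiomyocyte markers fell in 11 of 11 genes, with sums of 46027 to 56252 CPM with AdGFP and 17705 to 19620 with AdMETTL5. Fibroblast markers fell in 8 of 11 genes (11707 to 12359 against 9236 to 10191 CPM), with a median log2 fold change of -0.38 against -1.20 for the cardiomyocyte markers. Of 9 smooth muscle and pericyte markers 4 rose and 1 fell, where the higher count was 1 without AdGFP library 3 or 4 or AdMETTL5 library 1 or 2, 2 without AdMETTL5 library 3 and 2 with no filter on low counts, of 7 endothelial markers 1 rose, and of 6 macrophage markers 3 fell, where Cd163 was at 0 in both groups, and Emcn and C1qb were at 0 with AdMETTL5. The part of these differences in the values of the members was not tested.

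The wider lists in NRVMs, chosen in the same way, are read against the 27.1% of all genes called higher and 25.7% called lower. With these shares, 6 of 14 kinase and eIF2 genes rose and 3 fell with AdMETTL5. Eif2ak2, which encodes PKR, the interferon-induced kinase that senses double-stranded RNA, went from 47.7 ± 3.51 to 167 ± 18.7 CPM (SD, n = 4, log2 fold change 1.81, adjusted p = 1.46e-08, edgeR). Ppp1r15a and Ppp1r15b, the phosphatase subunits that oppose the kinases, were at 0.51 and 0.43. Of 21 other targets and partners of ATF4 and CHOP 10 rose and 3 fell, with a median of 0.20. Ddit4, an inhibitor of mTORC1 signaling, was at 0.90 (adjusted p = 9.34e-08), Sesn2, a sensor of leucine and stress, at 0.75 (adjusted p = 1.46e-07), and Slc7a5, a carrier of large neutral amino acids, at 0.44 (adjusted p = 3.33e-06, edgeR). Of 20 synthetases 10 rose and 2 fell, led by Yars1 at 0.43, which became 15 and 0 on library size alone. The lower count was also 0 without AdGFP library 1 or 2 or AdMETTL5 library 2, and 1 without AdMETTL5 library 1. Of 24 serine, glycine, proline and one-carbon enzymes 7 rose and 8 fell, near the shares of all genes, where Got1, the cytosolic aspartate transaminase, was at -0.66 and Tyms, the thymidylate synthase of dividing cells, at 0.80. Of 22 chaperone genes of the endoplasmic reticulum 3 rose and 4 fell, which became 12 and 0 on library size alone. On that scaling the kinase and eIF2 list had 8 higher and 1 lower, the targets 14 and 2, the serine and one-carbon list 9 and 5, and the mitochondrial list below 9 and 2. Of 11 mitochondrial chaperones and proteases 6 rose and 2 fell, with the protease Lonp1 at 0.49 (adjusted p = 1.09e-06, edgeR). The 3 receptor genes called of 4 tested all fell, Fgfr1 by 0.20, Fgfr3 by 0.58 and Fgfr4 by 0.65 on the log2 scale, and the call of Fgfr4 was lost in 7 of the 8 fits that leave out a library. On library size alone 1 receptor gene was called lower.

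**Figure D4:**
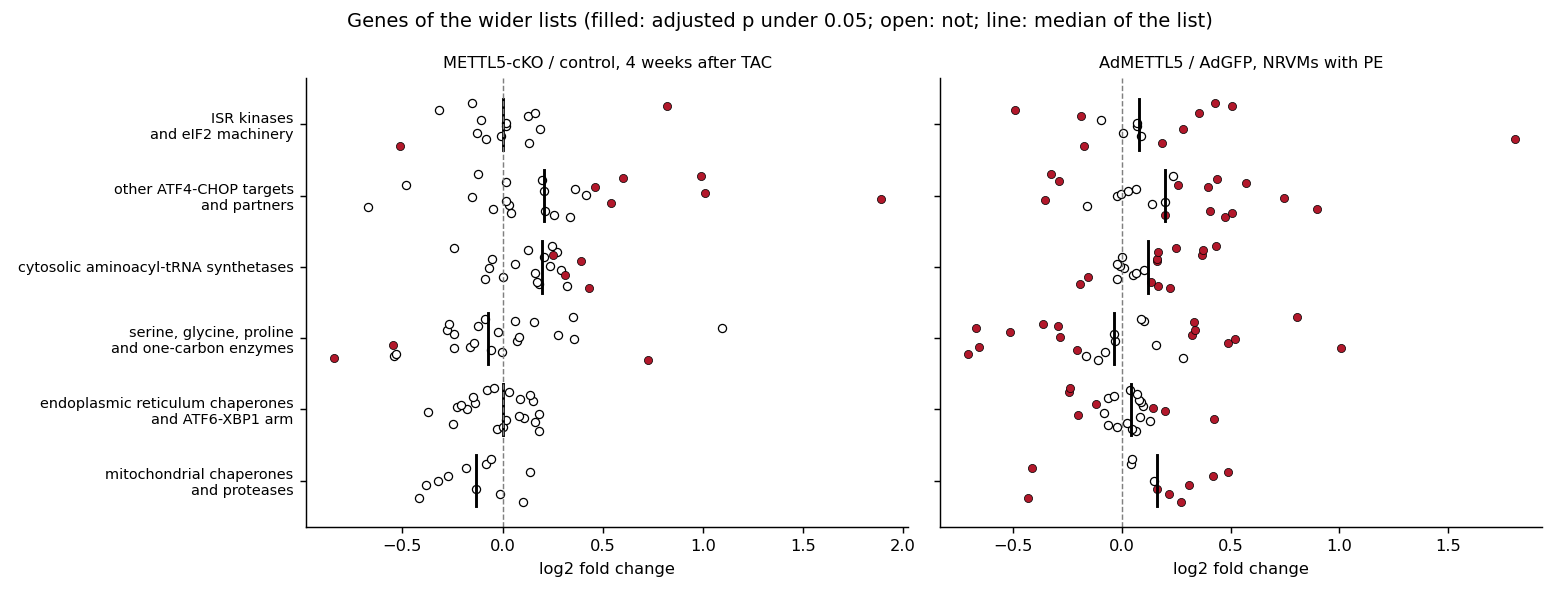
Log2 fold changes (horizontal axis) of the genes of 6 wider lists (rows) after TAC (METTL5-cKO against control) and in NRVMs (AdMETTL5 against AdGFP), 1 point a gene, filled where the adjusted p was under 0.05 by edgeR, with a line at the median of the list. After TAC 6 of 22 ATF4 and CHOP targets and 4 of 20 synthetases are filled, all above 0, where 6.57% of all genes were called higher. Leaving out 1 library moved these counts between 1 and 6 and between 0 and 10. The eIF2 list has 1 filled above 0 and 1 below, and the serine and one-carbon list 1 above and 2 below. The endoplasmic reticulum and mitochondrial lists have none.

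Across the 24 hearts, the levels of the 9 detected members were compared with each other after the mean of each group was removed, so that the group differences above play no part. Of 36 pairs 24 had a positive Pearson's r, with a median of 0.12. The 4 pairs over 0.5 all join amino acid and one-carbon enzymes, Asns with Mthfd2 (0.67), Asns with Psat1 (0.57), Phgdh with Mthfd2 (0.54) and Psat1 with Mthfd2 (0.53). The lowest was Ddit3 with Psat1 (-0.47). Gdf15 and Mthfd2 had an r of 0.08 within groups and of 0.74 when the group means were kept. The libraries share depth and scaling, and several of these genes rest on fewer than 100 counts, so these values are a description.

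**Figure D5:**
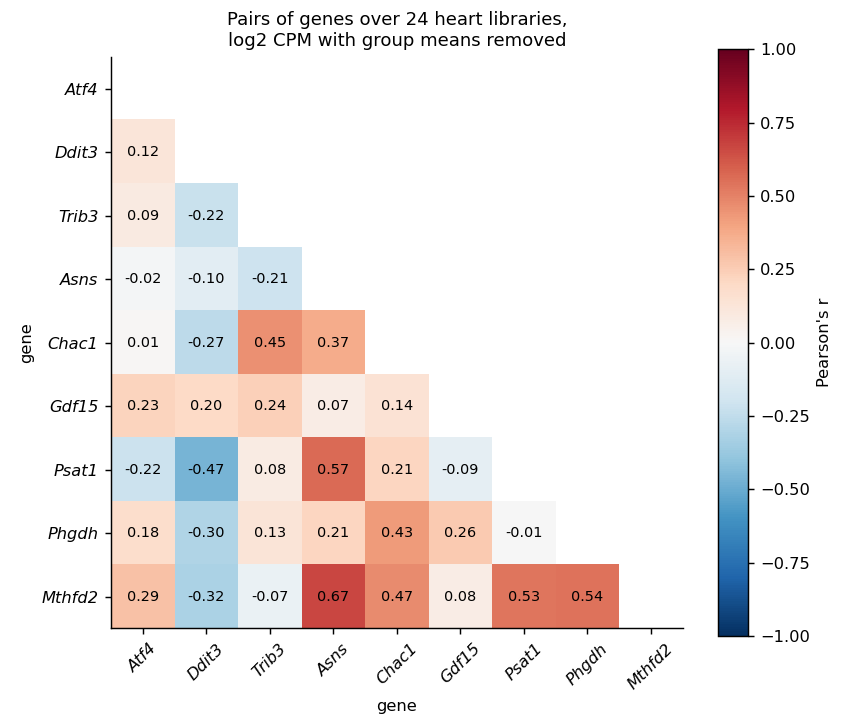
Pearson's r between each pair of 9 genes over 24 hearts, on log2 CPM with the mean of each of the 6 groups removed. Both axes list the genes, the color scale runs from negative to positive r, and the 4 reddest cells are pairs among Asns, Psat1, Phgdh and Mthfd2.

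The genes most alike each member over the same 24 hearts were taken from 16256 genes by Pearson's r with group means removed. Values picked as the highest of so many are large in part by selection, and no chance level was computed. Those closest to Gdf15 were Nol3 (0.82), Dnajb11 (0.80) and Mvp (0.79), and those closest to Mthfd2 were Alg3 (0.85), Gm7332 (0.81) and Pfn1 (0.81). Atf4 was followed by Slc47a1 (0.77), Ddit3 by Dgcr6 (0.73), Trib3 by Usp16 (0.84) and Asns by Disp1 (0.85). Chac1 was followed by Efr3a (0.82), Psat1 by Nup107 (0.85) and Phgdh by Mettl2 (0.84). With group means kept, 1 of the 3 nearest genes was shared for Atf4 and for Psat1 and 0 for the other 7 members, so these neighbours rest on the way the groups are treated.

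Among the members, only Ddit3 shares exon bases with another gene. Its exons (ENSMUSG00000025408, GRCm38 chr10:127290774-127296288, plus strand) share 68 bases with Mars and 13 with Gm4189 on the other strand, and 105 with the second Ddit3 row, which held 0 or 1 counts in each heart. Since nothing states whether the libraries kept strand, reads in those bases cannot be told apart. Psat1 and Mthfd2 lie over other annotated genes without shared exon bases, and Atf4, Trib3, Asns, Chac1, Gdf15, Fgf21 and Phgdh overlap none.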

How the data were processed

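RNA sequencing of mouse hearts and NRVMs was taken from 4 deposited tables, with 4 libraries per group. Per the methods and processing notes of the submitters, the authors aligned reads with HISAT2 2.0.4 to GRCm38 or Rnor_6.0 and deposited estimated counts per gene made with StringTie 2.1.4, so that a count is an estimate from the read coverage of a gene. The values are whole numbers, so rounding changed nothing. The plan had assumed plain counts.

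Groups came from the labels and column names. Only the 1-month columns matched single samples. Each comparison was fitted by itself over all genes with edgeR 4.0.16 (R 4.3.3), TMM scaling, filterByExpr (minimum count 10, minimum total 15) and the quasi-likelihood test with Benjamini-Hochberg adjustment, called at 0.05. CPM use TMM-scaled library sizes. Single values were compared by an exact permutation test over 70 labellings, on log2 CPM with a prior count of 2. The fits were tested on simulated data, with the same spread between libraries set for all genes and changes placed only in genes of more than 100 counts on average. Of 100 changes of 1 on the log2 scale, 79 were recovered at 1 month and 95 at 3 months. After TAC 99 were recovered, and in NRVMs 100. Members with fewer counts or a wider spread were not covered by this test. DESeq2 1.42.0, other scalings, filters and thresholds, leaving out each library, and a replicate block at 1 month were the alternatives. Exon lengths came from GENCODE vM21 (55141 of 55487 IDs matched) and promoters from RefSeq. No duplicate libraries were found, since the closest pair differed by 2.16 times the sampling variance.

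The named genes were the members, Mettl5, the 3 called genes of each wider list with the smallest adjusted p, and the 3 genes most alike each member. Slc3a2, Slc7a5 and Stc2 after TAC were named because they complete a count. The members and lists were chosen with earlier results of these data known, and the rows of the members were then taken by symbol alone. The replicate numbers at 1 month gave correlations of deviations of 0.239, 0.120, -0.107 and 0.0782, so they were not taken to pair the hearts.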

Additional observations from a re-analysis of the deposited data

Results flagged for a closer look

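Of 74 groups of 4 libraries, 5 held a library far from the other 3, where chance gives about 1 in 20. Chac1 supplied 3 of them, with control library 1 lowest at 1 month (1.18 CPM), control library 1 highest after TAC (4.66 CPM) and AdMETTL5 library 4 lowest in NRVMs (27.4 CPM). AdMETTL5 library 4 was also lowest for Atf4 (459 CPM), and control library 2 at 1 month was highest for Psat1 (4.66 CPM). Libraries with the same number in different groups are not the same sample.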

How the results depend on the processing

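In hearts depth limits mainly Phgdh, Gdf15 outside METTL5-cKO hearts after TAC, and Fgf21, and in NRVMs Fgf21. Trib3, Asns, Chac1, Psat1 and Mthfd2 were also low in hearts, with group medians between 24.5 and 110.5 counts. With a replicate block at 1 month, 0 members were called higher and 0 lower, and Asns turned to 0.033. No paired analysis was possible at 3 months, after TAC or in NRVMs because the numbers in the column names could not be matched to the replicate labels. On library size alone Asns at 1 month was at 0.045, Ddit3 at 3 months at 0.014, Mettl5 after TAC at 0.11 and Mthfd2 in NRVMs at 0.027, all of the opposite sign, and 0 members were called lower in NRVMs. With no filter on low counts Asns at 1 month was at 0.0093. On plain CPM the mean log2 difference turned to 0.011 for Ddit3 at 3 months and 0.026 for Mthfd2 in NRVMs. At an unadjusted p there were 1 higher and 1 lower member at 3 months and 3 members with an interaction, against 1 with DESeq2. With an absolute log2 fold change over 1 in NRVMs, 0 members were higher and 0 lower.

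Leaving out 1 library at 1 month gave log2 fold changes from -0.050 to 0.13 for Atf4, -0.19 to 0.28 for Asns, -0.59 to 0.30 for Gdf15, -0.40 to 0.32 for Psat1, -0.0044 to 0.47 for Phgdh and -0.0087 to 0.72 for Mthfd2. At 3 months they ran from -0.040 to 0.12 for Atf4, -0.11 to 0.031 for Ddit3 and -0.25 to 0.40 for Chac1. Mettl5 after TAC ran from -0.10 to 0.035, and the interaction of Phgdh from -0.013 to 0.48. The members with an interaction numbered 0 to 1. The members called higher numbered 2 to 3 after TAC and 5 to 6 in NRVMs. The causes of these moves were not tested.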
